A study of Mus musculus with 9 samples.

Results

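The translation initiation and elongation factor genes are those whose platform symbol starts with Eif1 to Eif6 or with Eef1 or Eef2, read from probes annotated to exactly 1 gene. They number 50 of the 7117 genes on the array with such a probe, and they were measured by 106 of its 16128 probes. Whole-testis total RNA of Spo11-/- mice was set against that of wild-type mice on 2-colour arrays of spotted cDNA, with 1 knockout and 1 wild-type sample competing for the same spots. Mice of 15 days gave 4 arrays and mice of 12 days gave 5. Spo11 encodes the topoisomerase-like protein that cuts DNA to start meiotic recombination, and the series asks how its loss alters the transcripts of the juvenile testis. The sources used here do not give the strain or the allele of the Spo11-/- mice. Per the series' design text, the mouse pairs were littermates. As whole testes were used, fewer cells of a type and less RNA per cell cannot be told apart. Ratios without spot intensities give no level of a transcript, so the labelled tissue could not be checked against its defining markers, and levels are not compared between genes. No probe was annotated to Spo11.

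Eukaryotic protein synthesis starts when eIF2, carrying GTP and the initiator transfer RNA, joins the small ribosomal subunit together with eIF1, eIF1A, eIF3 and eIF5. The complex is brought to the capped end of the messenger RNA by eIF4F, which is made of the cap-binding protein eIF4E, the RNA helicase eIF4A and the scaffold eIF4G. eIF2B recharges eIF2 with GTP, and kinases that phosphorylate eIF2 block that step. In elongation, eEF1A brings each charged transfer RNA to the ribosome, the other eEF1 subunits recharge eEF1A, and eEF2 moves the ribosome along. Meiotic germ cells of the mouse store many messenger RNAs before translating them, and Eif2s3y, the Y-linked copy of the gene for the gamma subunit of eIF2, is needed in mice for the proliferation of spermatogonia.

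The members fell into 11 groups by factor. There were 4 genes of the eIF1 and eIF1A group, 3 of eIF2, 5 of eIF2B, 2 of eIF2 kinases, 12 of eIF3 and 9 of eIF4F and its helicase cofactors. Other groups were Eif2a with Eif2d, the eIF4E transporter gene Eif4enif1, and the 5 genes of eIF5, eIF5A, eIF5B and eIF6. The rest were the 4 genes with symbols starting with Eef1, and Eef2 with its kinase gene Eef2k and its methyltransferase gene Eef2kmt. Of the 50 genes, 27 had 1 probe.

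Start-site sequences are shown for the gene pairs that hold the called members Eif2s3y and Eif4a1, which are the Y and X copies of the eIF2 gamma subunit gene and the eIF4A helicase genes, and for a pair of eIF2B subunit genes. RefSeq promoter windows on GRCm38.p6 existed for 41 of the 50 members. Each line has the 40 bases before the annotated start in lower case and the first 20 transcribed bases in capitals. Eif2s3y lies at chrY:1010555-1010614 on the plus strand, Eif2s3x at chrX:94212632-94212691 on the minus strand, Eif4a1 at chr11:69672404-69672463 on the minus strand and Eif4a2 at chr16:23107428-23107487 on the plus strand. Eif2b2 lies at chr12:85219441-85219500 on the plus strand and Eif2b4 at chr5:31193120-31193179 on the minus strand.
Eif2s3y: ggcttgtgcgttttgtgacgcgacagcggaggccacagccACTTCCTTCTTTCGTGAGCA
Eif2s3x: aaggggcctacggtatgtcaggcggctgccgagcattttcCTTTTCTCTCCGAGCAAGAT
Eif4a1: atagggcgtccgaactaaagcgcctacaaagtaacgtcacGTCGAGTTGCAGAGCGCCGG
Eif4a2: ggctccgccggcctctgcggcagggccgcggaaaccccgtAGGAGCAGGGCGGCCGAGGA
Eif2b2: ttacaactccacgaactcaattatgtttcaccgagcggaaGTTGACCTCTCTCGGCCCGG
Eif2b4: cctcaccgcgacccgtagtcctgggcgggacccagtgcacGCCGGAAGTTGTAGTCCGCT

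Over the whole 300-base windows of Eif2s3y and Eif2s3x the longest run common to both was 12 bases, GAGCAAGATGGC. The ETS-type motif CCGGAAGT, searched on both strands, was in the windows of 9 of 41 members (21.95%), among them Eif2b2 and Eif2b4, against 10.2% of 5741 array genes and 4.31% of all 27025 genes with a window. The E-box CACGTG, which reads the same on both strands, was in 11 of 41 members (26.8%), against 12.8% of array genes and 8.09% of all genes. Eif5a and Eif5a2 held both motifs, and no match of one overlapped a match of the other. Members with and without the ETS-type motif had median 15-day log2 ratios of -0.10 and -0.11, and members with and without the E-box had -0.21 and -0.10. The motifs were chosen after the sequences had been seen, and a match is a description of letters, not of a bound factor.

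Which way the ratios run could not be settled. By the labels, Cy3 marked the Spo11-/- RNA on each 15-day array and on 12-day replicates 2 and 3, and Cy5 marked it on 12-day replicates 1, 4 and 5. Yet the 15-day arrays correlated below 0 with the 12-day arrays of the same orientation, at r of -0.43 to -0.08 across all genes, and of -0.60 to 0.17 across the members (8 pairs). With 12-day arrays of the opposite orientation they correlated at -0.21 to 0.02 across all genes (12 pairs). Pairs of 12-day arrays, as deposited, correlated at -0.15 to 0.43 in the same orientation and at -0.02 to 0.27 in opposite orientations. Pairs of 15-day arrays correlated at 0.28 to 0.58 across the members. These are correlations across genes, which are not independent replicates. At 15 days the deposited sign was therefore kept: under a Cy5 over Cy3 reading, a negative value stands for more transcript in the knockout, and under a knockout over wild type reading for less. Turning the sign turns every value below that comes from a fit of the 15-day arrays alone, and exchanges the counts above and below 0. In fits of both ages with a dye term, turning it changes the size of the estimates as well. Because all 15-day arrays had 1 orientation, a gene's own dye effect and the knockout cannot be told apart at that age.

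Between 72.1% and 91.3% of the probes had a value on an array. Values of probes that follow each other in order correlated at r of 0.11 to 0.65, and most on 12-day replicate 5. At 15 days 5 of 6 tested markers of pachytene spermatocytes were called below 0 at an adjusted p under 0.05 (median of the 6, -1.07). Of 7 markers of spermatogonia, 6 lay above 0 and 3 of these were called (median of the 7, 0.36). Over the whole array 5.37% of features were called below 0 and 7.05% above 0. No marker of Sertoli cells was called among 8 (0 by limma, 1 at an unadjusted p under 0.05, median 0.15). Of the other somatic markers, 1 of 5 Leydig genes (Nr5a1, 0.43) was called above 0, as was 1 of 5 peritubular and fibroblast genes (Col1a1, 0.41), while Lum of that list (-0.57) and the only macrophage gene tested (Lyz2, -0.61) were called below 0. The marker lists were drawn up with earlier results of these data known, so their calls are no independent evidence. Of 17 listed pachytene genes 6 were on the array, and of 14 listed spermatogonial genes 7. The part of these marker shifts in the members' ratios was not tested.

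At 15 days, 3 of the 49 members tested passed an adjusted p of 0.05 (6.12%), with Eif2s3y and Eif4a1 above 0 and Eif3e below 0. Over the whole array 12.4% of 12198 features passed, as did 11.2% of 6958 genes, so the members' share was not above the background. By direction, 7.05% of features and 4.04% of genes passed above 0, and 5.37% of features and 7.2% of genes below 0. The 49 members had a median log2 ratio of -0.08, against -0.02 for all genes, and 15 lay above 0 and 34 below. Of 48 members with a value on every 15-day array, 20 had 1 sign on all 4 arrays, against 37.5% of all genes. Of these, 16 were below 0 (23.1% of all genes) and 4 above (14.4% of all genes). A further 9 members, Eef2k above 0 and 8 below, had an adjusted p between 0.05 and 0.1. Eif1ad had no 15-day value. The test was limma's moderated test of the mean against 0, with Benjamini-Hochberg adjustment over all features, and all adjusted p-values below are from limma.

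**Figure D1:**
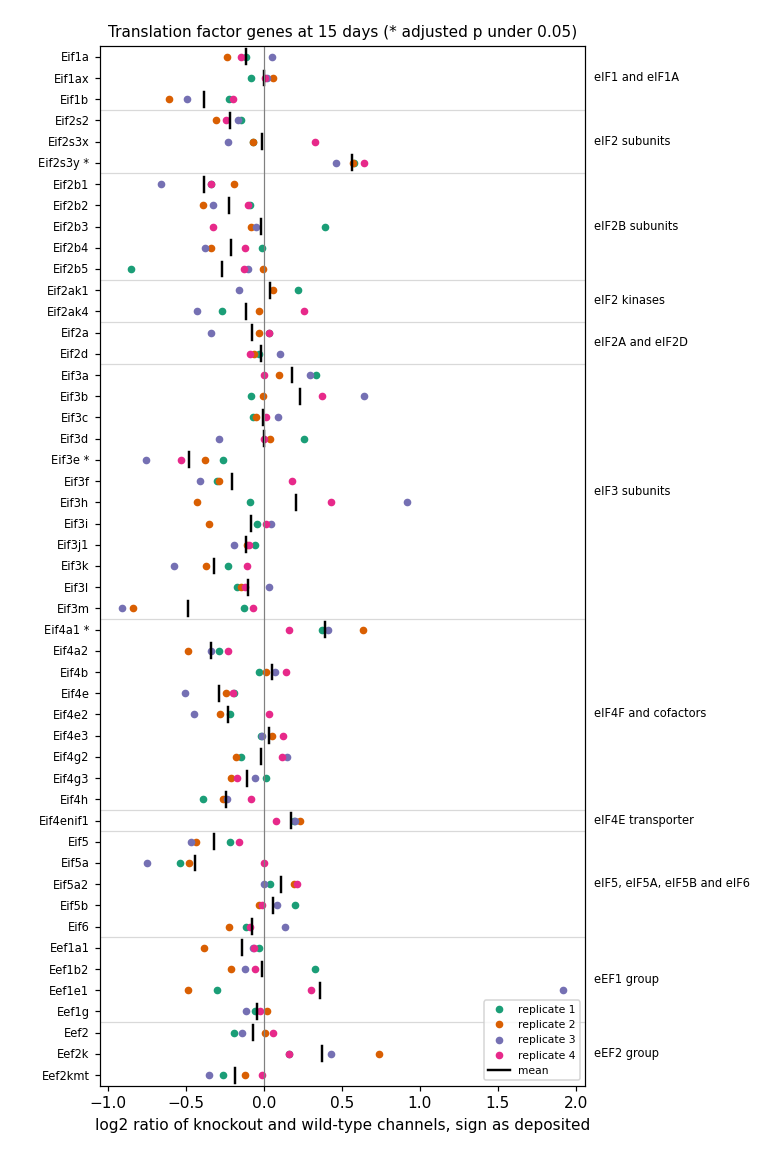
Log2 ratio at 15 days, sign as deposited (horizontal axis), of each tested translation factor gene, grouped by factor, with 1 point per array, a bar at the mean and an asterisk at genes with an adjusted p under 0.05. Eif2s3y lies between 0.46 and 0.64 on the 4 arrays, and Eif3e between -0.76 and -0.26.

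Eif2s3y had the smallest p of the members. On 15-day replicates 1 to 4 its log2 ratio was 0.58, 0.57, 0.46 and 0.64. All 4 arrays were thus above 0 and close to each other, with a mean of 0.56 (SE 0.10, 95% interval 0.34 to 0.78, adjusted p = 0.010, 1.48-fold). It was the only Y-linked gene measured, from 1 probe. With the median of the 100 nearest probes on each side subtracted, a step chosen after the data were seen, its mean was 0.34 (adjusted p = 0.031). Leaving out each array in turn kept the mean between 0.54 and 0.60 (adjusted p 0.029 to 0.037). In a joint fit of both ages with a dye term it was 0.67 (adjusted p = 0.039), but with the 15-day sign turned in that fit it was 0.46 and did not pass (adjusted p = 0.27).

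The X-linked copy Eif2s3x, with a log2 ratio of -0.07, -0.07, -0.23 and 0.33 on replicates 1 to 4, averaged -0.01 (SE 0.12, 95% interval -0.27 to 0.25). Its arrays lay on both sides of 0, and its interval ended below that of Eif2s3y. Each copy had 1 probe, and the difference between the copies was not tested. Probe sequences were not available here, so whether a probe also binds the transcript of the other copy could not be checked. The other X-linked member, Eif1ax, encodes a form of eIF1A and averaged 0.00 (SE 0.10, adjusted p = 0.99). The 207 X-linked genes tested had a median of 0.15, against -0.02 for all genes, with 29 called above 0 and 1 below. These calls made up 14.5% of them, against 12.4% of all features and 11.2% of all genes. By direction, 7.05% of all features and 4.04% of all genes were called above 0. Eif2s2, the gene of the beta subunit of eIF2, lay below 0 on every array at -0.15, -0.31, -0.17 and -0.25, but its mean of -0.22 (SE 0.10, adjusted p = 0.17) did not pass.

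All 5 eIF2B subunit genes had 15-day means below 0, from -0.38 to -0.02 with a median of -0.23, and none passed (0 of 5 by limma, 1 at an unadjusted p under 0.05). Eif2b1, the gene of the alpha subunit, came nearest, at -0.34, -0.19, -0.66 and -0.34 on replicates 1 to 4 and a mean of -0.38 (SE 0.11, adjusted p = 0.051). It passed in 5 of 12 settings (the fit reported here, 7 alternatives at the same threshold and each of 4 arrays left out), with adjusted p from 0.030 to 0.049. Eif2b2, the beta subunit gene, averaged -0.23 (SE 0.11, adjusted p = 0.17), passing only with the local median subtracted (adjusted p = 0.047), and Eif2b4, the delta subunit gene, -0.21 (SE 0.11, adjusted p = 0.21). Both were below 0 on all 4 arrays. The catalytic epsilon subunit gene Eif2b5 averaged -0.27, but its 2 probes averaged -0.48 and 0.20. On replicate 1 only the lower of these probes had a value, -0.85, which set the gene's value there. Eif2b3, the gamma subunit gene, averaged -0.02.

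Of the genes that act on eIF2, the kinase genes Eif2ak1 (0.04, adjusted p = 0.86, from 3 arrays) and Eif2ak4 (-0.12, adjusted p = 0.57) did not pass. Eif2ak1 encodes the heme-regulated kinase, and Eif2ak4 the kinase GCN2 that senses uncharged transfer RNA. Eif2a averaged -0.08 (adjusted p = 0.66) and Eif2d -0.02 (adjusted p = 0.92). Both encode factors that can deliver initiator transfer RNA without eIF2.

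In the eIF1 group, Eif1b, which encodes a protein close to the start-codon selecting factor eIF1, had values of -0.23, -0.61, -0.50 and -0.20 and averaged -0.38 (SE 0.11, adjusted p = 0.052), passing in 6 of 12 settings. All arrays were below 0, but its 2 probes averaged -0.25 and -0.52 and differed on replicate 1, where they read 0.10 and -0.55. Eif1a averaged -0.11 (adjusted p = 0.48).

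The eIF3 complex, the scaffold on the small ribosomal subunit, had 12 genes on the array, of which 8 had means below 0 and 4 above (median -0.09). Eif3e was the called one. It read -0.26, -0.38, -0.76 and -0.53 on replicates 1 to 4, all below 0, with a mean of -0.48 (SE 0.11, 95% interval -0.74 to -0.23, adjusted p = 0.028, 1.40-fold). Without replicate 1 the adjusted p was 0.043, and without replicate 2, 3 or 4 it was between 0.061 and 0.096, so that the call needed those 3 arrays. It also ended in a joint fit of both ages with a dye term (adjusted p = 0.053, and 0.20 with the 15-day sign turned). The gene has 1 probe.

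Eif3m had the lowest mean of the members, at -0.49 (SE 0.16), but it did not pass (adjusted p = 0.072). Its arrays read -0.13, -0.84, -0.91 and -0.07, so that replicates 2 and 3 carried the mean. Eif3k, at -0.23, -0.37, -0.58 and -0.11, averaged -0.32 (SE 0.11, adjusted p = 0.086). The eIF3 core gene Eif3a lay on the other side, with a mean of 0.18 (SE 0.11, adjusted p = 0.27) over 7 probes. Eif3b, another core gene, averaged 0.23 (adjusted p = 0.27) and Eif3h 0.21 (adjusted p = 0.49), both with their highest value on replicate 3. Eif3c, Eif3d, Eif3f, Eif3i, Eif3j1 and Eif3l averaged between -0.21 and 0.00.

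Among the eIF4F genes the paralogous helicase genes differed in sign. Eif4a1 read 0.37, 0.64, 0.41 and 0.16 on replicates 1 to 4, and averaged 0.39 (SE 0.11, 95% interval 0.15 to 0.64, adjusted p = 0.047, 1.31-fold). Eif4a2 read -0.29, -0.49, -0.34 and -0.23, and averaged -0.34 (SE 0.10, 95% interval -0.56 to -0.11, adjusted p = 0.056), passing in 3 of 12 settings. Eif4a1 was above 0 and Eif4a2 below 0 on each of the 4 arrays. The difference between the genes was not tested. As for Eif2s3y and Eif2s3x, whether a probe also binds the paralogue's transcript could not be checked.

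The Eif4a1 call rested on an average of unlike probes. One probe read 0.24, 1.37, 0.15 and -0.18 on replicates 1 to 4, and the other 0.50, -0.10, 0.67 and 0.50. Their means were close, at 0.40 and 0.39, but each was low where the other was high, and neither probe passed alone (adjusted p = 0.22 and 0.081, over single probes). The call was lost without replicate 1, 2 or 3 (adjusted p 0.11 to 0.16) and kept without replicate 4 (adjusted p = 0.048). It was also lost with quantile normalization (adjusted p = 0.061) and in a joint fit of both ages with a dye term (adjusted p = 0.092, and 0.32 with the 15-day sign turned).

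The cap-binding gene Eif4e had values of -0.20, -0.25, -0.51 and -0.20 and averaged -0.29 (SE 0.11, adjusted p = 0.098), and the means of its 4 probes were all below 0, from -0.40 to -0.09. Eif4h, whose product stimulates the eIF4A helicase, averaged -0.24 (adjusted p = 0.14), with its 2 probes at -0.44 and -0.05. The other helicase cofactor gene, Eif4b, averaged 0.05 over probes of both signs, and Eif4e2, Eif4e3, Eif4g2 and Eif4g3 averaged between -0.23 and 0.04. Eif4enif1, whose product carries eIF4E into the nucleus and represses translation, lay above 0 on all 4 arrays and averaged 0.17 (SE 0.10, adjusted p = 0.26). Its 3 probes averaged 0.34, 0.39 and -0.21, so not all of them shared that sign.

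In the group of eIF5, eIF5A, eIF5B and eIF6, Eif5a read -0.54, -0.48, -0.75 and 0.00 and averaged -0.44 (SE 0.13, adjusted p = 0.054). Its product helps ribosomes past difficult peptide bonds. The gene's ratio varied between arrays. Eif5a stood at 0 on replicate 4 and well below 0 on the others, and without replicate 4 it passed (-0.59, adjusted p = 0.024). Eif5, whose product triggers GTP hydrolysis by eIF2, read -0.22, -0.44, -0.47 and -0.16 and averaged -0.32 (SE 0.11, adjusted p = 0.074).

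The 4 probes of Eif5 averaged -0.41 to -0.24, and each of them was below 0 on all 4 arrays. That likeness between probes was not general, as of 23 members with more than 1 tested probe, 15 had probe means of both signs. Eif3i had probes at -0.50 (adjusted p = 0.019) and 0.32 (adjusted p = 0.18), Eef1a1 had 8 probes from -0.70 to 0.21, and Eif3a had 7 from -0.10 to 0.57. Over single probes, 2 of 104 member probes were called above 0 and 7 below, against 12.2% of 9354 probes with 1 gene. Probes of 1 gene share their samples and are not replicates.

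**Figure D2:**
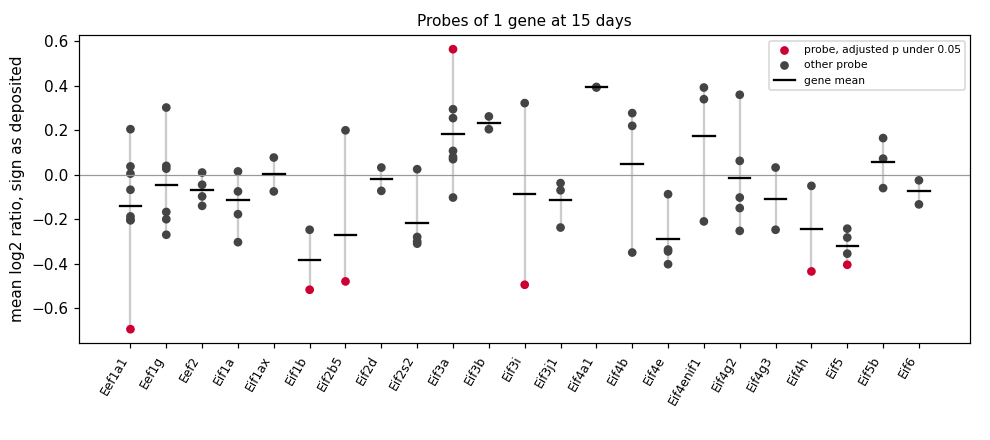
Mean log2 ratio at 15 days, sign as deposited (vertical axis), of every probe of the members with more than 1 tested probe, by gene, with a bar at the gene mean and probes of adjusted p under 0.05 in red. The 4 probes of Eif5 and the 4 of Eif4e all lie below 0, whereas the probes of 15 of the 23 genes lie on both sides of 0.

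None of the genes with Eef1 or Eef2 symbols was called at 15 days (0 of 7 by limma, 1 at an unadjusted p under 0.05). Eef1a1, which encodes the common form of eEF1A, averaged -0.14 (SE 0.11, adjusted p = 0.41), and Eef2, which encodes the translocase, -0.07 (SE 0.10, adjusted p = 0.69). Eef2k, the kinase gene that inhibits eEF2, read 0.16, 0.74, 0.43 and 0.16 and averaged 0.37 (SE 0.12, adjusted p = 0.076), and Eef2kmt averaged -0.19 (adjusted p = 0.26). Eef1b2 and Eef1g, which encode subunits of the eEF1A exchange factor, averaged -0.02 and -0.04. Eef1e1, whose product belongs to the aminoacyl-tRNA synthetase complex, averaged 0.36 (SE 0.32), but read -0.30, -0.49, 1.92 and 0.30, and its mean was -0.16 without replicate 3.

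At 12 days the values were turned to knockout over wild type under a Cy5 over Cy3 reading, and a dye term was fitted, since both orientations were present. None of 49 members passed (0 by limma, 0 at an unadjusted p under 0.05). The background was 0% of 10075 features, with 269 at an unadjusted p under 0.05. The members' median was -0.01, and 24 lay above 0 and 25 below. Eif4e3 had too few values. On replicate 5, members spread from -0.99 to 0.90, more than on any other 12-day array (SD 0.41, against 0.14 to 0.27).

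The smallest p belonged to Eif3h, a subunit gene of eIF3, at -0.34, -0.31, -0.15, -0.02 and -0.16 on replicates 1 to 5. All 5 arrays were below 0, with an effect of -0.20 (SE 0.09, 95% interval -0.41 to 0.01, adjusted p = 1.0 by limma). Eif2s3y read 0.06, -0.06, 0.82, 0.19 and 0.24, so that replicate 3 stood far above the others. Its effect was 0.27 (SE 0.14, 95% interval -0.06 to 0.60), and 0.05 without that array. Eef2k came next at -0.31 (SE 0.15, from 4 arrays), then Eif6, whose product keeps free large ribosomal subunits apart from small ones, at 0.17 (SE 0.10), and Eif4a1 at -0.17 (SE 0.10). Turning every array at 12 days would turn these signs.

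**Figure D3:**
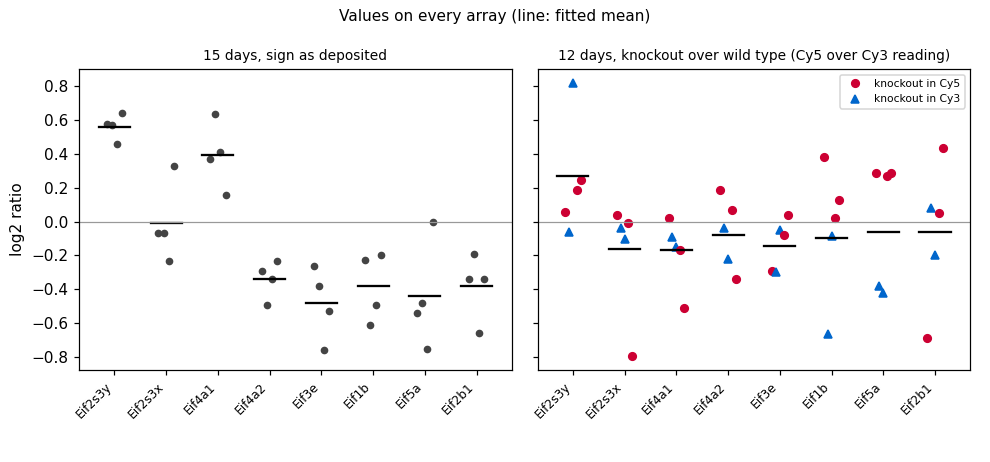
Log2 ratios of selected translation factor genes on each array at 15 days (left panel, sign as deposited) and at 12 days (right panel, knockout over wild type under a Cy5 over Cy3 reading), with lines at the fitted means and symbols at 12 days for the knockout's dye. The 15-day arrays of Eif2s3y lie together between 0.46 and 0.64, while its 12-day arrays run from -0.06 to 0.82.

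The signs at 12 days were also counted before and after turning the arrays. Of 48 members with 5 values, 8 had 1 sign on all 5 arrays as deposited (12.9% of all genes did), and 3 had 1 sign after turning (4.61% of all genes). As deposited, Eif4b, Eef2, Eif1ad, Eif1b, Eef2kmt, Eif2b2 and Eif5a were above 0 on all 5 arrays and Eif3a below. After turning, Eef1e1 and Eif3h were below 0 and Eif2d above.

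As deposited, Eif5a was thus above 0 at 12 days whichever dye the knockout carried. Turned to knockout over wild type, it read 0.29, 0.27 and 0.29 on the arrays with knockout in Cy5 (replicates 1, 4 and 5) and -0.38 and -0.42 on those with knockout in Cy3 (replicates 2 and 3). Its dye coefficient was 0.34, the highest of the members, followed by Eif1b (0.28), Eif3k (0.24) and Eif6 (0.24). No member's dye coefficient passed (lowest adjusted p = 0.57 by limma). Over 48 members the 15-day mean and the 12-day dye coefficient were opposite in sign for 31 (r = -0.47, rho = -0.41), and over 6144 genes for 3669 (r = -0.33). These are correlations across genes on shared arrays, given as a description.

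**Figure D4:**
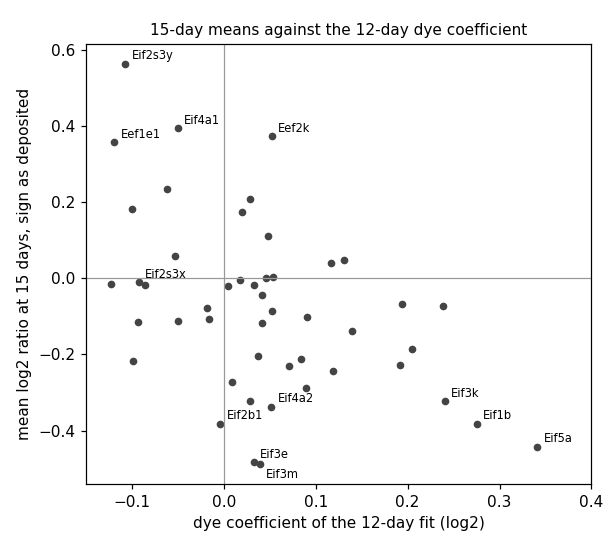
Mean log2 ratio at 15 days, sign as deposited (vertical axis), against the dye coefficient of the 12-day arrays in log2 units (horizontal axis), 1 point per translation factor gene (48 genes). Eif5a, Eif1b and Eif3k lie at the right with 15-day means below 0, and 31 of 48 genes have opposite signs on the axes.

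The difference between the ages set the knockout effect at 15 days against that at 12 days in 1 fit of the 9 arrays, in which both ages shared a dye term. As every 15-day array had knockout in Cy3, the estimate compared them with 12-day replicates 2 and 3 only. The numbers in the array titles were all lower at 15 days than at 12 days, so title number and age cannot be told apart. If 15-day values are Cy5 over Cy3, as the labels read, none of 48 members passed (0 by limma, 7 at an unadjusted p under 0.05), against 2.34% of 9851 features and 2.28% of genes (1.64% of genes above 0). Eif2s3y had the smallest p, with a difference of -0.94 (SE 0.22, adjusted p = 0.0503), but it was -0.50 without 12-day replicate 3 (adjusted p = 0.33) and -1.38 without 12-day replicate 2 (adjusted p = 0.017). Eif5a differed by 0.84 (SE 0.20, adjusted p = 0.052), and by 0.74 to 0.99 with each array left out, passing without 15-day replicate 4, 12-day replicate 1 or 12-day replicate 5. Eif1b, at 0.47 without 12-day replicate 2, lay at 0.76 (adjusted p = 0.081), Eif3e at 0.66 (adjusted p = 0.086) and Eif4e at 0.49 (adjusted p = 0.13). The members' median difference was 0.12, against 0.04 for all genes.

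With the 15-day sign turned, the differences of these 5 genes were 0.18 for Eif2s3y, -0.04 for Eif5a, -0.01 for Eif1b, -0.31 for Eif3e and -0.08 for Eif4e. No member passed (0 by limma, 2 at an unadjusted p under 0.05), nor did any feature (0% of 9851, 650 at an unadjusted p under 0.05). The members at an unadjusted p under 0.05 were Eef2k at 0.73 and Eif4a1 at 0.51 (adjusted p = 0.74 for both). The members' median was then -0.04, against -0.03 for all genes. As the readings differ only in the sign of the 15-day values, members with 15-day means near 0 necessarily had nearly the same difference under both. Examples were Eif2s3x (0.08 as labelled and 0.06 turned) and Eif2b3 (-0.12 and -0.16).

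Other genes of translation and its control, from a list of 44 with 32 on the array, were also set against 0 at 15 days. Of 31 tested, 6 were called below 0 and 1 above (22.6%, against 12.4% of all features and 11.2% of all genes), with a median of -0.15. The list was drawn up with earlier results of these data known, so its share is no independent evidence. Mif4gd, a partner of stem-loop binding protein in histone mRNA translation, lay at -1.60 (adjusted p = 0.00061), and Ybx3, a cold shock domain RNA-binding protein gene, at -1.16 (adjusted p = 0.013). Pabpc1, the poly(A)-binding protein that joins eIF4G, lay at -0.88 (adjusted p = 0.012), and its partner gene Paip1 at -0.50 (adjusted p = 0.033). Larp1, a regulator of the mRNAs of ribosomal proteins, lay at -0.49 (adjusted p = 0.018) and the ribosome rescue gene Hbs1l at -0.43 (adjusted p = 0.041). The RNA helicase gene Ddx3x lay at 0.44 (adjusted p = 0.030). The 70 cytosolic ribosomal protein genes had 9 called below 0 (12.9%, against 12.4% of all features called in either direction and 7.2% of genes below 0) and a median of -0.22, and none of 6 mitochondrial translation factor genes was called (0 by limma, 1 at an unadjusted p under 0.05, median -0.13).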

How the data were processed

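The deposited values were log ratios per probe, 1 column per array, read here as log2, since no source used here names the log base. Per the labels' design text, the authors scanned the chips with a GenePix scanner, flagged spots with GenePix 3.0 and centred each array on its median. No source used here names the background correction. Spot intensities were not used, so signal over background cannot be given, and precision is limited by how many arrays there were. No aligner or genome build applies to the ratios, and coordinates come from RefSeq on GRCm38.p6.

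Probes were named from the platform annotation, which is old. It gave exactly 1 gene for 9604 probes, several for 213 and none for 6311, and 1 probe shared by Eif1a and another gene was left out. Symbols of all 50 members matched RefSeq. Probes of 1 gene were averaged per array, and other probes were kept as features of their own. Arrays were centred again on their median.

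Moderated two-sided tests came from limma 3.58.1 under R 4.3.3, by lmFit followed by eBayes, and p-values were adjusted over all features after Benjamini and Hochberg, with 0.05 as the threshold. For 15 days the 4 arrays' mean was set against 0, given 3 or more values. At 12 days a knockout term and a dye term were fitted to features with 4 or more values in which both orientations were present. The age difference came from 1 model of 9 arrays. Replicate numbers follow the order of deposit and pair nothing. The design text speaks of experiments in quadruplicate, while 5 arrays are labelled 12 days. No source used here says whether any share RNA. Each array was taken as 1 replicate, and p-values measure only the spread between arrays, which may be partly technical. The scripts were tested on simulated data.

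The members, gene lists and tests were chosen with earlier results of these data known. The genes named with values were those past the threshold, the 2 of smallest p at 15 days in each factor group, the 5 of smallest p at 12 days and for the age difference, and called genes in the list of other translation genes. Others were named for their role or their probes after their values were seen. Alternatives covered scaling, quantile normalization, a local median, missing values, dye terms, single probes, a stricter threshold, robust empirical Bayes, the sign at 15 days and each array left out.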

Additional observations from a re-analysis of the deposited data

Results flagged for a closer look

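In 97 groups of 4 or 5 array values of a member, 9 held 1 array far from the others. In each, the gap to the nearest neighbour divided by the range of the group exceeded Dixon's 95% critical value (0.829 for 4 arrays and 0.71 for 5). Chance alone marks about 1 in 20 groups. Of the 9, 4 were at 15 days and 5 at 12 days, and all 5 at 12 days were on replicate 5, the array on which neighbouring probes correlated most (r = 0.65). The part of that in these values was not tested.

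At 15 days, sign as deposited, Eef1a1 read -0.39 on replicate 2, against -0.07 to -0.03 on the others. Eif2b5 read -0.85 on replicate 1, where 1 of its 2 probes had a value, against -0.13 to -0.005 elsewhere. Eif4e read -0.51 on replicate 3, against -0.25 to -0.20 on the other arrays, and Eif2a read -0.34 on the same array, against -0.03 to 0.03.

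At 12 days, with ratios turned to knockout over wild type, replicate 5 was highest for Eif2ak1, at 0.68 against -0.26 to -0.08 on the other arrays, and for Eif2b4, at 0.60 against -0.22 to -0.01. It was lowest for Eef1e1, at -0.99 against -0.22 to -0.05, for Eif2s3x, at -0.79 against -0.10 to 0.04, and for Eif3b, at -0.56 against -0.08 to 0.12. None of these genes was called at either age.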

How the results depend on the processing

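Each array already pairs a knockout with a wild-type sample, and the tests on its log ratios kept that pairing. No further pairing between arrays was possible. The labels give the arrays no replicate numbers, and the numbers used here follow the order of deposit. At 15 days the count of features past the threshold was 1515. It was 242 at an adjusted p under 0.01 with at least 1.5-fold, 763 in a joint fit of both ages and a dye term, and 17 in that fit after turning the 15-day sign. The count of members, 3, became 0 at the stricter threshold, 6 with arrays scaled to 1 median absolute deviation, 6 with quantile normalization (which lost Eif4a1), 9 with the local median subtracted, 5 when a value on every array was required, 9 as single probes, 6 with robust empirical Bayes and 0 in the joint fit after turning the sign. In the joint fit as labelled it stayed at 3, of which Eif2s3y was called in both fits, Eif1b (-0.66) and Eif5a (-0.78) were gained, and Eif3e (-0.51, adjusted p = 0.053) and Eif4a1 (0.44, adjusted p = 0.092) were lost. Leaving out each array gave 372 (without replicate 3) to 1185 (without replicate 4) features, with 640 without replicate 1 and 597 without replicate 2, and 1 to 4 members, with 1 without replicate 2 or 3.

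For the age difference, 231 features passed as labelled, 4 at the stricter threshold, 535 with scaling, 796 with quantile normalization, 495 with the local median subtracted and 0 with the 15-day sign turned. The count of members, 0, became 2 with scaling, 5 with quantile normalization, 3 with the local median, 2 with a value on every array required, 2 as single probes and 2 without a dye term. Leaving out each array gave 10 (without 15-day replicate 3) to 576 (without 12-day replicate 5) features and 0 to 2 members. With the sign turned as well, an alternative chosen after seeing the data, it gave 0 to 7 features and 0 members. At 12 days every alternative and each array left out gave 0 features and 0 members by limma, with 153 to 910 features at an unadjusted p under 0.05.

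Signs turned for members near 0: Eif2ak4 was 0.03 and Eif2d 0.0031 with the local median, Eif2ak1 -0.077 in the joint fit as labelled, and Eef1a1 0.00063 and Eef2kmt 0.020 in that fit after turning the sign. Without 1 array, Eef1e1 ran from -0.16 to 0.64, Eif2a from -0.11 to 0.01 and Eif2d from -0.062 to 0.0033. At 12 days as deposited without a dye term, Eef2k was 0.05 and Eif2s3y -0.053. For the age difference, turning the 15-day sign reverses the 15-day part of the contrast, so the sign changes there follow from the arithmetic. They were not confined to values near 0: Eif2s3y went from -0.94 to 0.18, Eif5a from 0.84 to -0.043 and Eif1b from 0.76 to -0.0075. Eif3e went from 0.66 to -0.31 and Eif4e from 0.49 to -0.080. The cause of the other changes was not tested. With 4 and 5 arrays, effects of the size seen in most members could not be told from 0, and a result that misses the threshold does not show that a gene was unaffected.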

Other observations

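In the other translation lists at 12 days, under a Cy5 over Cy3 reading, 67 of 69 cytosolic ribosomal protein genes lay below 0 (median -0.17) and none was called (0 by limma), while the members were at 24 above 0 and 25 below. On single 12-day arrays the median of the ribosomal protein genes ran from -0.87 on replicate 1 to 0.42 on replicate 5, and that of the members from -0.08 on replicate 3 to 0.13 on replicate 5.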
